A study of Sus scrofa with 12 samples.

Results

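The genes described here are those with higher expression in deoxyshikonin-treated than in control cells at both sampling times of an RNA sequencing study in IPEC-J2, an established line of pig small intestinal epithelial cells. Expression was given as TPM, a relative transcript abundance which divides each gene's abundance by its length and by the library total. A gene was chosen by its own measured values. It had to have an Ensembl pig identifier, a mean TPM of at least 1 over the 12 libraries, and a difference between treated and control means of at least 1 on the log2(TPM + 1) scale at 6 h and again at 24 h. Of 11366 Ensembl identifiers at or over that mean, 144 genes (1.27%) met the rule, out of 32518 identifiers in all. A further 545 genes met the threshold only at 6 h and 139 only at 24 h. Cells were left untreated or received 5 µmol/L of deoxyshikonin, a naphthoquinone made by plants, and each of the 4 groups (control 6 h, treated 6 h, control 24 h, treated 24 h) held 3 libraries. All groups were of the one cell line, and the labels name no vehicle. The labels do not say whether the 3 libraries of a group came from separate cultures, so p-values measure only the spread between these libraries, which may be technical. Because the differences at 6 h and 24 h selected the genes, they are given with their standard error (SE, n = 3 libraries per group) and without a test. Calls at 6 h and 24 h over the gene lists below include any members on them. Those counts describe the lists and are not a test of the members.

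Naphthoquinones belong to a class of compounds that can cycle between oxidised and reduced forms and can react with thiols of proteins and of glutathione. Cells answer such stress with several programmes. The transcription factor NRF2 drives enzymes of quinone reduction, glutathione and thioredoxin metabolism, heme breakdown and iron storage through antioxidant response elements. Heat shock factor drives chaperones that bind unfolded proteins, and ubiquitin receptors and autophagy adaptors remove proteins that are not refolded. Immediate early genes are switched on by kinase signalling and are known for short-lived transcripts.

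The libraries were alike within groups, with Pearson's r of log2(TPM + 1) across genes between 0.981 and 0.988 for replicate pairs. Epithelial markers were present, with 9 of 9 such genes in the table at a mean of at least 1 TPM. Their summed level was 7490 to 8420 TPM outside the treated 6 h libraries and 4880 to 5070 TPM in them. VIL1 of that list averaged 1.62 TPM over the 12 libraries, and the small intestinal origin was not tested. Over all 11897 genes tested, the median difference was -0.20 at 6 h and 0.09 at 24 h with TPM as deposited, against -0.07 and 0.01 after median-of-ratios rescaling of the libraries. Small differences are best read relative to those medians. TPM carries no sequencing depth, so no counting interval could be given.

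The 144 genes were mostly low in untreated cells. The rule favours such genes, since its mean covered all 12 libraries and a gene could pass it through its treated libraries alone. The median level of the 144, taken over each gene's group mean, was 3.72 TPM in 6 h controls and 3.79 TPM in 24 h controls, where the median of all tested genes was 16.1 and 15.2 TPM. In treated cells it was 17.8 TPM at 6 h and 15.6 TPM at 24 h, beside 14.4 and 16.0 TPM for all tested genes. In 6 h controls 44 of them averaged under 1 TPM and 9 averaged at least 100 TPM. In treated cells 32 averaged at least 100 TPM at 6 h and 23 at 24 h. Together they held 0.789% to 0.802% of all TPM in the 6 h control libraries and 4.27% to 4.71% in the treated ones. At 24 h these shares were 0.752% to 0.793% in controls and 2.17% to 2.46% in treated cells. The 5 genes with the highest treated level at 6 h, HSP70.2, ENSSSCG00000014540, FTL, SQSTM1 and ZFAND2A, made up 65.9% of the genes' summed TPM in treated 6 h cells and 62.0% in 6 h controls.

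The size of the difference varied widely among the genes. The median difference was 1.86 at 6 h, with a highest value of 8.19, and 1.53 at 24 h, with a highest value of 5.83. A difference of at least 2 was seen for 64 genes at 6 h, for 40 at 24 h and for 32 at both times, and 9 genes reached 3 at both. For 92 genes the difference was larger at 6 h and for 52 it was larger at 24 h. After median-of-ratios rescaling 110 of the genes had the larger difference at 6 h. For 103 genes the values at the 2 times lay within 1 log2 unit of each other, while 30 genes were larger by 1 or more at 6 h and 11 at 24 h. The median of the 24 h minus the 6 h difference was -0.19, beside 0.25 over all tested genes. It was -0.38 after median-of-ratios rescaling, -0.37 after quantile normalization and -0.287 without the third 24 h treated library. Every treated library lay above every control library for 136 genes at 6 h, for 136 at 24 h and for 133 at both, where the shares of all tested genes were 28.6%, 35.4% and 17.0%. Over all tested genes, limma called 26.6% higher in treated cells at 6 h and 32.2% at 24 h; since the rule used these contrasts, nothing is read from the members' own separation.

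**Figure D1:**
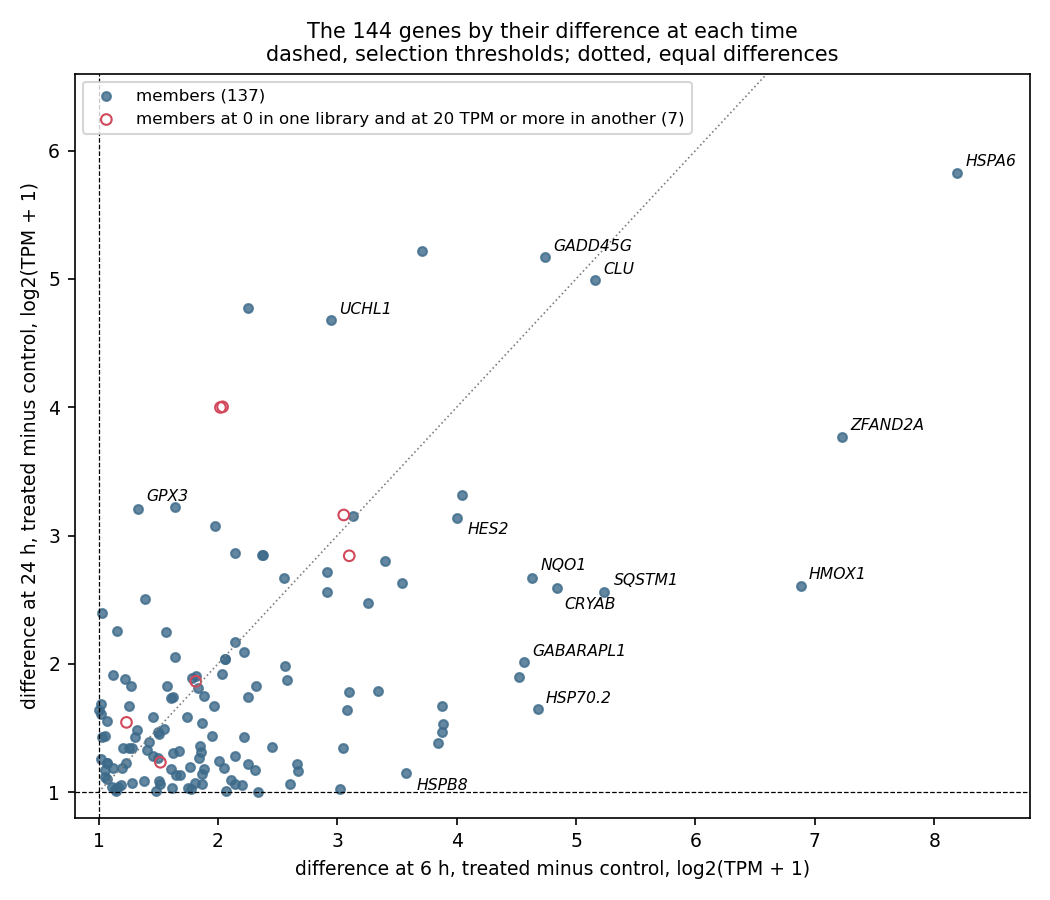
Each point is 1 of the 144 genes, with its treated minus control difference in mean log2(TPM + 1) at 6 h on the x axis and at 24 h on the y axis. Dashed lines are the thresholds that chose the genes and the dotted line marks equal differences; 92 genes lie to the right of it, among them HMOX1 and ZFAND2A, and open circles are the 7 genes with a listed 0 and a value of at least 20 TPM in different libraries.

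The 4 members on the chaperone list were far higher in treated than in control cells at 6 h and less so at 24 h. CLU, described below, is a chaperone outside that list. HSPA6, a stress-inducible member of the HSP70 family, had 3.72, 3.74 and 4.18 TPM in 6 h control libraries and 1428, 1575 and 1291 TPM in the treated ones, a ratio of means of 369. At 24 h its controls had 3.03, 3.32 and 3.04 TPM and the treated libraries 306, 209 and 199 TPM, a ratio of 76.0. The first 24 h treated library was the highest of its group. The difference was 8.19 at 6 h and 5.83 at 24 h (SE 0.14), and 5.63 at 24 h without that library. HSP70.2, another inducible HSP70 gene, was already abundant in controls, with 391, 384 and 385 TPM at 6 h. It reached 9956, 10806 and 9081 TPM in treated cells, a difference of 4.68 (SE 0.09). At 24 h its controls had 366, 333 and 349 TPM and its treated libraries 1290, 1010 and 1007 TPM, a difference of 1.65. HSP70.2 belongs to a subgroup of inducible HSP70 genes that are near-identical copies of each other, and how the authors' counting split reads among them is not stated, so its level is uncertain.

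CRYAB, a small heat shock protein that holds unfolded proteins in solution, stood at 0.23, 0.46 and 0.31 TPM in untreated and 37.5, 35.5 and 38.0 TPM in treated libraries at 6 h. At 24 h the controls had 0.50, 1.34 and 0.84 TPM and the treated libraries 10.6, 8.28 and 12.1 TPM. The treated level of CRYAB at 24 h was well under that at 6 h. HSPB8, a small heat shock protein that works with the co-chaperone BAG3, had 13.8, 12.2 and 12.8 TPM in 6 h control libraries and 165, 175 and 155 TPM in the treated ones. The 24 h levels of HSPB8 were 21.3, 20.7 and 21.7 TPM untreated and 45.9, 45.3 and 53.7 TPM treated, so the control level was itself higher than at 6 h. ZFAND2A, a zinc finger protein that associates with the proteasome under stress, stood at 13.3, 15.1 and 12.4 TPM in untreated and 2187, 2349 and 2012 TPM in treated libraries at 6 h. At 24 h the controls had 9.26, 9.84 and 9.34 TPM and the treated libraries 103, 151 and 184 TPM. Its differences of 7.23 and 3.77 (SE 0.16) made it second to HSPA6 at 6 h.

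Most genes of the chaperone list did not meet the threshold at both times. Of 32 listed genes, 29 were tested; at 6 h limma called 28 higher and 1 lower in treated cells (adjusted p under 0.05), where the share of all tested genes called higher was 26.6% and lower 48.7%. At 24 h 14 were higher and 2 lower, where the shares were 32.2% and 18.1%. Median-of-ratios rescaling made the list's counts at 24 h 13 and 6. Shares over all tested genes after rescaling were not counted for treated against control. The list's median difference was 1.84 at 6 h and 0.20 at 24 h. At 6 h 23 of the 29 reached a difference of 1, at 24 h 5 did, and 4 did so at both times. Those 4 are members that the same contrasts chose, so the list's counts are a description. The following values of genes outside the 144 were picked after they were seen. BAG3 had a mean of 37.7 TPM in 6 h controls and 882 TPM in treated cells, and 43.8 and 76.1 TPM at 24 h, a difference of 0.78. DNAJB1, the co-chaperone of HSP70, had differences of 4.45 and 0.94. HSPB1 went the other way, with 0.56 at 6 h and 1.15 at 24 h.

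**Figure D2:**
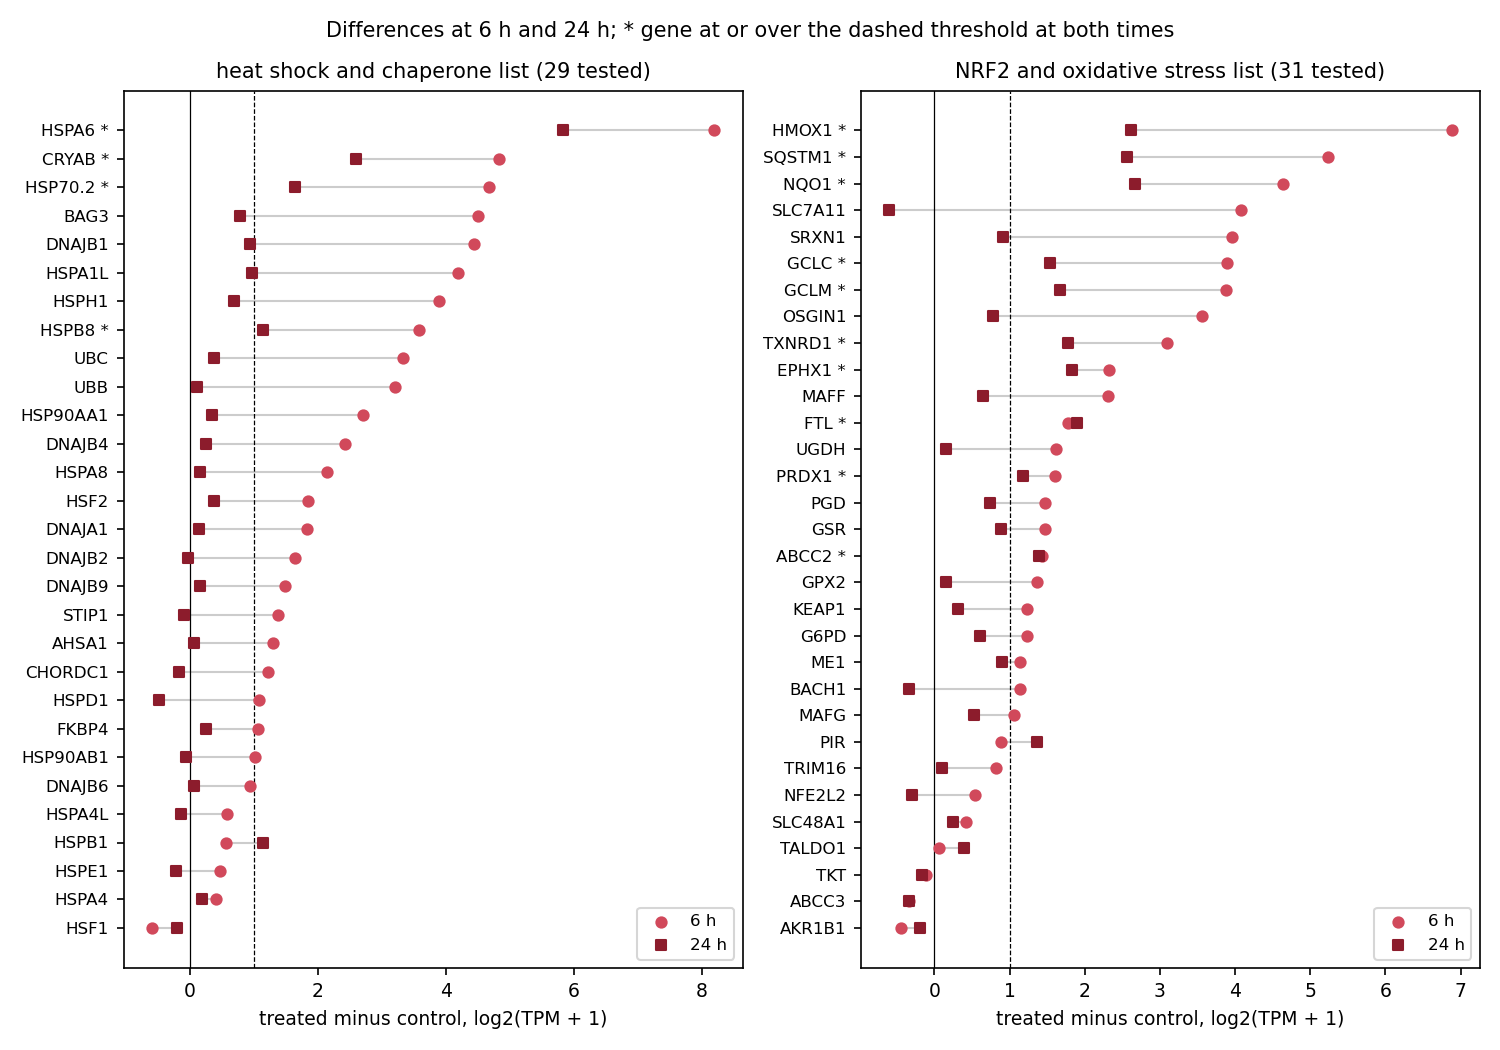
Each row is a tested gene of the chaperone list (29, left) or the NRF2 list (31, right), and the x axis is the treated minus control difference in mean log2(TPM + 1), as a circle at 6 h and a square at 24 h. Asterisks mark the 4 and 10 genes at or over 1 at both times; most other chaperones lie near 0 at 24 h, while FTL and ABCC2 have circles and squares close together.

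Among genes of heme and iron handling, HMOX1 was much lower in treated cells at 24 h than at 6 h, while BLVRB and FTL had like treated levels at both times. HMOX1, heme oxygenase, which breaks heme into biliverdin, iron and carbon monoxide, had 14.2, 18.2 and 16.3 TPM in 6 h control libraries and 2055, 2163 and 1854 TPM in the treated ones. In the later libraries HMOX1 had 13.7, 13.5 and 15.3 TPM without and 79.6, 93.6 and 102 TPM with the compound. The difference went from 6.88 to 2.61 (SE 0.10), and its decline of 4.27 (SE 0.15) between the times was the largest among all 144. BLVRB, a biliverdin reductase, stood at 41.7, 49.2 and 51.0 TPM in untreated and 309, 256 and 280 TPM in treated libraries at 6 h. After 24 h BLVRB reached 246, 259 and 284 TPM in treated libraries, beside 43.1, 40.2 and 38.3 TPM in untreated ones. Its treated levels at the 2 times overlapped, and its differences were 2.55 and 2.67 (SE 0.09). FTL, the ferritin light chain that stores iron, had 1441, 1489 and 1530 TPM in 6 h control libraries and 5130, 5280 and 4926 TPM in the treated ones. By 24 h the untreated libraries of FTL had 1355, 1419 and 1481 TPM and the treated ones 4726, 5376 and 5739 TPM, a range that overlaps that at 6 h. Differences for FTL were 1.78 and 1.89 (SE 0.06).

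Quinone reduction and glutathione synthesis were represented by NQO1, GCLC and GCLM, and all 3 were lower in treated cells at 24 h than at 6 h. NQO1, which reduces quinones, stood at 8.42, 9.69 and 9.71 TPM in untreated and 259, 249 and 252 TPM in treated libraries at 6 h. The 24 h levels of NQO1 were 5.54, 5.57 and 6.05 TPM untreated and 35.6, 41.7 and 48.5 TPM treated, with differences of 4.63 and 2.67 (SE 0.09). GCLC, the catalytic subunit of glutamate-cysteine ligase, had 2.37, 2.01 and 1.91 TPM in 6 h control libraries and 43.1, 46.0 and 45.0 TPM in the treated ones. Its 24 h values were 1.75, 1.36 and 1.64 TPM in controls against 5.61, 6.51 and 7.34 TPM with treatment. GCLM, the modifier subunit of the same enzyme, moved alongside, with 5.28, 5.10 and 5.49 against 93.3, 93.7 and 87.5 TPM at 6 h. In the later libraries GCLM had 4.04, 4.34 and 4.18 TPM without and 11.2, 16.7 and 20.1 TPM with the compound. The differences of the 2 subunits were 3.89 and 3.88 at 6 h, and 1.53 and 1.68 at 24 h.

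The thiol and detoxifying enzymes differed in how far they came down by 24 h. TXNRD1, thioredoxin reductase, stood at 68.7, 67.9 and 67.2 TPM in untreated and 590, 615 and 560 TPM in treated libraries at 6 h. By 24 h its control level was 33.5, 33.6 and 34.2 TPM and its treated level 101, 119 and 138 TPM, so both groups were lower than at 6 h. PRDX1, a peroxiredoxin that removes hydrogen peroxide, had control values of 342, 343 and 345 TPM and treated values of 1032, 1112 and 1011 TPM at 6 h, and 194, 204 and 209 against 435, 461 and 488 TPM at 24 h. EPHX1, an epoxide hydrolase, had 5.13, 3.89 and 4.94 TPM in 6 h control libraries and 29.7, 24.1 and 27.9 TPM in the treated ones. After 24 h EPHX1 reached 23.2, 26.9 and 28.8 TPM in treated libraries, beside 6.34, 7.03 and 6.63 TPM in untreated ones. GSTO1, a glutathione transferase, stood at 285, 273 and 269 TPM in untreated and 676, 655 and 666 TPM in treated libraries at 6 h. At 24 h its controls had 144, 142 and 163 TPM and its treated libraries 465, 542 and 597 TPM, which gave it a larger difference at 24 h, 1.83, than at 6 h, 1.27. ABCC2, an efflux pump for conjugates, had differences of 1.43 and 1.39. The carbonyl reductase CBR3 had 3.88 and 1.47, and the alkenal and quinone reductase PTGR1 had 3.34 and 1.79.

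The NRF2 list as a whole held more genes past the threshold at 24 h than the chaperone list did. Of 35 listed genes, 31 were tested. At 6 h limma called 27 higher and 2 lower, where the shares of all tested genes were 26.6% and 48.7%. At 24 h 23 were higher and 6 lower, where the shares were 32.2% and 18.1%. The list's median difference was 1.47 at 6 h and 0.74 at 24 h. A difference of at least 1 was reached by 23 genes at 6 h and by 11 at 24 h, and 10 of the 144 genes are on this list. Those 10 were chosen by the same contrasts, so the list's counts are a description. SLC7A11, the cystine importer, was not one of them, with mean TPM of 9.73 and 181 at 6 h and 20.4 and 13.2 at 24 h, a difference of 4.08 and then -0.61. SRXN1, sulfiredoxin, had differences of 3.95 and 0.92. Both were named after their values were seen.

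Among adaptors of ubiquitin and autophagy, SQSTM1, which binds ubiquitinated cargo and is also a known NRF2 target, had 127, 123 and 122 TPM in 6 h control libraries and 4720, 4936 and 4434 TPM in the treated ones. At 24 h its controls had 187, 188 and 191 TPM and its treated libraries 874, 1150 and 1397 TPM. The first 24 h treated library was the lowest of its group here, where it was the highest for HSPA6, and the 24 h difference of 2.56 was 2.74 without it. GABARAPL1, a protein of the autophagosome membrane, stood at 9.62, 11.5 and 10.5 TPM in untreated and 272, 275 and 268 TPM in treated libraries at 6 h. By 24 h the untreated libraries of GABARAPL1 had 19.5, 21.5 and 19.4 TPM and the treated ones 67.4, 86.1 and 103 TPM. The autophagy, lysosome and proteasome list had 26 tested genes. At 6 h 17 were called higher and 4 lower, where the shares of all tested genes were 26.6% and 48.7%. At 24 h 20 were higher and 3 lower, where the shares were 32.2% and 18.1%. The list's median differences were 0.45 and 0.44. GABARAPL1 was its only gene with a difference of at least 1 at both times. MAP1LC3B, the best known of its family, had 1.08 and 0.92. The lysosomal genes CREG1, with 3.26 and 2.47, and SLC66A1, with 3.03 and 1.03, are members outside that list.

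**Figure D3:**
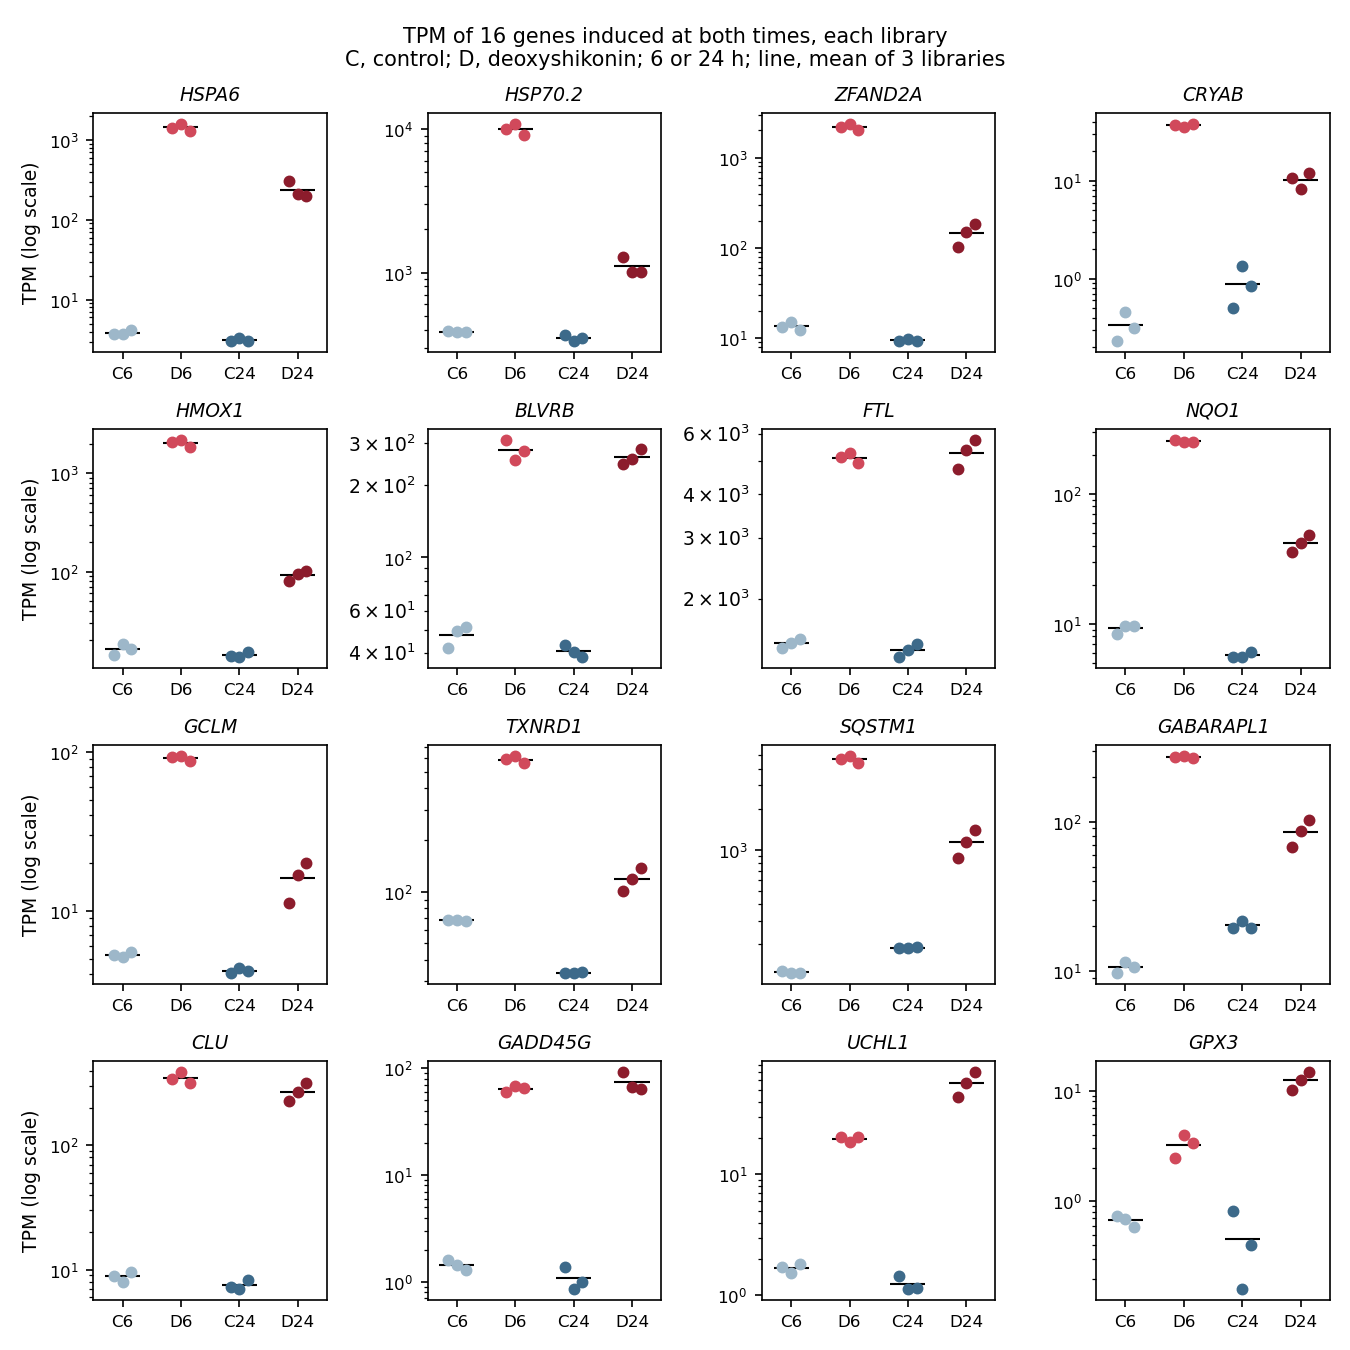
Each panel gives the TPM (log axis) of 1 gene in every library, as points for control (C) and deoxyshikonin (D) at 6 h and 24 h, with a line at the mean of 3 libraries. HSPA6, ZFAND2A, HMOX1 and SQSTM1 are lower in treated cells at 24 h than at 6 h, whereas BLVRB, FTL and GADD45G keep overlapping treated levels, and UCHL1 and GPX3 are higher at 24 h.

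Sequence upstream of HSPA6, a chaperone, and of NQO1 and GCLC, both on the NRF2 list, is shown because the motifs searched were found there. The 250 bases before the start of the RefSeq gene were read from assembly Sscrofa11.1; the authors' own build is not given in the sources used here, so these coordinates belong to that reference and not to the deposited values. These motifs were searched on both strands: a heat shock element of 2 units (GAANNTTC or TTCNNGAA), the core of the antioxidant response element (TGACNNNGC), the AP-1 site (TGANTCA) and the cyclic AMP response element (TGACGTCA). The antioxidant core and the AP-1 site can share letters. Sequences run 5′ to 3′ on the gene's strand up to the base before the annotated start, and capitals mark motif matches. That start is the first base of the RefSeq gene model and need not be where transcription begins. The window of HSPA6 is chr4:88973110-88973359 on the minus strand, that of NQO1 chr6:17292712-17292961 and that of GCLC chr7:27209315-27209564, both on the plus strand.
HSPA6: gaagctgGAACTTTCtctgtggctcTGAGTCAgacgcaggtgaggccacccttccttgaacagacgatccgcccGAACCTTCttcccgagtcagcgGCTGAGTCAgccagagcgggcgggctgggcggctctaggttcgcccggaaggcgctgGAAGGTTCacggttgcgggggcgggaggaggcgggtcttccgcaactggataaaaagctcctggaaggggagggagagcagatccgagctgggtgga
NQO1: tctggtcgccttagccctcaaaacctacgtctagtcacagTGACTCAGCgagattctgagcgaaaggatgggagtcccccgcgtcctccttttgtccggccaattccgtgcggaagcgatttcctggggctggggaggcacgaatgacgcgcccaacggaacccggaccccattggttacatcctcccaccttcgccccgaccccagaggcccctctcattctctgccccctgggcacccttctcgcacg
GCLC: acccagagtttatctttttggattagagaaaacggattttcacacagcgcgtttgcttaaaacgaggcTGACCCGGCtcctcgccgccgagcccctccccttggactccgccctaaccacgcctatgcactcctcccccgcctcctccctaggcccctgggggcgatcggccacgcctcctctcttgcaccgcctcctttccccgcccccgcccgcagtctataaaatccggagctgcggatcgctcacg

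In HSPA6 3 heat shock elements stood at -243, -176 and -97 from the start, and an antioxidant core at -154 overlapped one of its 2 AP-1 sites. In NQO1 an antioxidant core and an AP-1 site overlapped at -210, and in GCLC an antioxidant core stood at -182. Across the 144 genes, 112 had a symbol and 104 of them matched RefSeq. The heat shock element was found in 12 of the 104 windows (11.5%), against 10.5% of windows of all 19506 RefSeq genes and 9.7% of those of tested genes. HSPA6 was the only gene of the chaperone list among those 12. The antioxidant core was found in 14 (13.5%, against 10.0% and 11.1%), among them NQO1, GCLC, HSPA6, HES2, GADD45G and ISG15. Of the 10 NRF2 list members, only NQO1 and GCLC were among those 14, so the windows shown do not stand for their lists. The AP-1 site was found in 8 (7.7%, against 5.2% and 4.1%) and the cyclic AMP element in 3 (2.9%, against 1.7% and 2.5%). These shares are a description of the windows only.

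For CLU, RASD1 and HES2 the ratio of treated to control means was of like size at both times, and for GADD45G it was larger at 24 h. CLU, the secreted chaperone clusterin, had 8.84, 7.99 and 9.67 TPM in 6 h control libraries and 344, 387 and 318 TPM in the treated ones. The 24 h levels of CLU were 7.22, 6.96 and 8.30 TPM untreated and 226, 270 and 318 TPM treated, and its differences were 5.16 and 4.99 (SE 0.12). The ratio of its means was 39.6 and then 36.2. In treated cells CLU fell by 0.37 between the times (SE 0.12, limma adjusted p = 0.0146), a call that was lost without the first 24 h or the second 6 h treated library. GADD45G, a stress sensor that slows cell division, stood at 1.60, 1.43 and 1.30 TPM in untreated and 59.6, 67.7 and 65.3 TPM in treated libraries at 6 h. In the later libraries GADD45G had 1.39, 0.85 and 0.99 TPM without and 91.9, 67.2 and 63.4 TPM with the compound, and the ratio of its means was 44.5 and then 68.9. Its difference was larger at 24 h by 0.43 (SE 0.19), beside a median of 0.25 over all tested genes. The first 24 h treated library was its highest. Its change between times in treated cells was not called (0.19, limma adjusted p = 0.221). RASD1, a Ras-like G protein, had 0.82, 0.62 and 0.48 against 13.5, 12.4 and 13.9 TPM at 6 h and 0.71, 0.41 and 0.44 against 12.5, 10.4 and 14.8 TPM at 24 h, with differences of 3.13 and 3.15 and ratios of 20.8 and 24.2. HES2, a transcriptional repressor of the HES family, had 2.21, 1.84 and 1.58 TPM in 6 h control libraries and 45.8, 41.7 and 47.3 TPM in the treated ones. At 24 h both of its groups were lower, with 0.62, 0.50 and 0.51 TPM in controls against 10.2, 12.4 and 15.7 TPM with treatment, and the ratio of means was 23.9 at 6 h and 23.5 at 24 h. DLL1 and DLL4, ligands of Notch receptors, had differences of 1.02 and 1.69, and of 1.68 and 1.13; no list of that pathway was counted.

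Other genes had a larger difference at 24 h. UCHL1, a ubiquitin hydrolase abundant in neurons and endocrine cells, stood at 1.71, 1.54 and 1.83 TPM in untreated and 20.6, 18.5 and 20.3 TPM in treated libraries at 6 h. After 24 h UCHL1 reached 44.0, 57.2 and 70.0 TPM in treated libraries, beside 1.43, 1.12 and 1.15 TPM in untreated ones, so that its difference went from 2.95 to 4.68 (SE 0.13). GPX3, the secreted glutathione peroxidase, had 0.74, 0.69 and 0.58 TPM in 6 h control libraries and 2.44, 3.96 and 3.34 TPM in the treated ones. By 24 h the untreated libraries of GPX3 had 0.81, 0.16 and 0.40 TPM and the treated ones 10.1, 12.4 and 14.6 TPM, with differences of 1.33 and 3.21 (SE 0.18). The treated libraries of both genes at 24 h all lay above those at 6 h. The mitochondrial carrier UCP2 had differences of 1.64 and 3.23, and ECH1, an enzyme of fatty acid oxidation, of 1.03 and 2.40. Among members without a symbol, ENSSSCG00000002623 had the largest gain between the times, with 5.63, 3.73 and 2.87 against 22.1, 22.5 and 23.3 TPM at 6 h. Later values were 2.78, 4.85 and 3.72 TPM in controls against 101, 133 and 157 TPM with treatment. The tubulins TUBB3, with 2.38 and 2.85, and TUBA4A, with 2.14 and 2.86, also had a larger difference at 24 h, by 0.47 (SE 0.17) and 0.72 (SE 0.09).

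Of the immediate early genes, 4 were at or over the threshold at both times. FOSB, an AP-1 subunit, stood at 0.50, 0.46 and 0.64 TPM in untreated and 19.3, 12.9 and 19.2 TPM in treated libraries at 6 h. The 24 h levels of FOSB were 2.03, 1.23 and 1.18 TPM untreated and 19.7, 12.7 and 11.3 TPM treated. ARC, an activity-regulated gene, had control values of 0.10, 0.12 and 0.07 TPM and treated values of 11.4, 8.51 and 12.2 TPM at 6 h, and 0, 0.03 and 0.10 against 7.17, 5.87 and 5.85 TPM at 24 h. Control levels of ARC were near 0 in all 6 libraries. DUSP1, a phosphatase of MAP kinases, had 26.6, 26.1 and 25.6 TPM in 6 h control libraries and 114, 108 and 117 TPM in the treated ones. At 24 h its controls had 46.9, 47.4 and 44.8 TPM and its treated libraries 90.8, 91.4 and 102 TPM, so the difference went from 2.07 to 1.01 (SE 0.05). IER3 had 28.7, 28.1 and 25.6 against 83.9, 86.3 and 89.4 TPM at 6 h and 22.5, 23.9 and 20.6 against 69.2, 78.6 and 83.2 TPM at 24 h. Of 30 tested genes of the immediate early list, 14 were called higher and 10 lower at 6 h. At 24 h 14 were higher and 6 lower. Over all tested genes 26.6% were called higher and 48.7% lower at 6 h, and 32.2% and 18.1% at 24 h. Median-of-ratios rescaling gave the list 17 and 8, then 13 and 10. DUSP5 missed the threshold at 6 h, with 0.97, and had 1.76 at 24 h.

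Of the interferon list 2 of 16 tested genes, MX1 and ISG15, were among the 144, and of the NF-kB, cytokine and chemokine list 1 of 20. MX1, an interferon-induced GTPase, stood at 1.98, 1.66 and 1.67 TPM in untreated and 14.0, 16.0 and 16.0 TPM in treated libraries at 6 h. In the later libraries MX1 had 2.19, 1.92 and 3.22 TPM without and 14.2, 9.74 and 13.9 TPM with the compound. ISG15, the interferon-induced ubiquitin-like modifier, had 76.7, 77.1 and 77.1 against 211, 223 and 207 TPM at 6 h and 59.8, 51.8 and 63.1 against 151, 125 and 154 TPM at 24 h. Both were separated from their controls at each time, which the rule that chose them favours, so nothing is read from it. Of the 16 interferon genes, 7 were called higher and 3 lower at 6 h, and 14 higher and 0 lower at 24 h. The shares of all tested genes were 26.6% and 48.7% at 6 h, and 32.2% and 18.1% at 24 h. Both rescalings also gave the list 14 and 0 at 24 h. IL11, a cytokine of the IL6 family, had 0.14, 0.28 and 0.51 TPM in 6 h control libraries and 5.38, 6.88 and 4.63 TPM in the treated ones. After 24 h IL11 reached 1.15, 1.89 and 1.36 TPM in treated libraries, beside 0.24, 0.22 and 0.21 TPM in untreated ones. Of 20 tested genes of the NF-kB, cytokine and chemokine list, 13 were higher and 5 lower at 6 h. At 24 h 11 were higher and 3 lower. The same shares of all tested genes stand beside these counts. IL11 was the only gene of that list at the threshold at both times. Outside that list, the chemokines CCL27, with 2.25 and 1.74, and CCL4, with 1.61 and 1.73, and the chemokine receptor CXCR4, with 1.03 and 1.43, are also members. CXCL8, with 2.55 at 6 h and 0.13 at 24 h, was the most changed gene of the list at 6 h. ADM, the vasoactive peptide adrenomedullin and a hypoxia list gene, stood at 31.6, 31.5 and 30.9 TPM in untreated and 272, 291 and 255 TPM in treated libraries at 6 h. By 24 h the untreated libraries of ADM had 28.1, 32.3 and 31.8 TPM and the treated ones 108, 93.0 and 93.8 TPM.

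Some members are marker genes of other cell types. CD14 and LY96 encode partners of the lipopolysaccharide receptor, and CD68 is a macrophage lysosomal protein. CD14 had 1.24, 1.21 and 1.21 against 7.13, 5.59 and 5.26 TPM at 6 h and 1.43, 1.47 and 1.60 against 3.82, 4.90 and 4.76 TPM at 24 h. CD68 had 0.08, 0 and 0.43 against 2.32, 3.22 and 2.33 TPM at 6 h and 0.07, 0 and 0.50 against 3.30, 3.86 and 4.47 TPM at 24 h. The other leukocyte markers were at these levels. Of 12 in the list, PTPRC, the leukocyte common antigen, had at most 0.05 TPM in any library, and CD3D, CD3E, CD2 and CSF1R averaged under 0.1 TPM. The summed level of the list was 317 to 325 TPM in 6 h controls and 324 to 327 TPM in treated cells, most of it CD79A. At 24 h it was 328 to 371 and 346 to 371 TPM. CHGB, a granule protein of endocrine cells, had 0.16, 0.16 and 0.57 against 8.31, 9.39 and 8.39 TPM at 6 h and 0.16, 0.26 and 0.27 against 7.44, 6.85 and 6.99 TPM at 24 h. Of the enteroendocrine, goblet, tuft and Paneth cell markers, TFF3 was listed at 0 everywhere, and CHGA, NEUROD1, ATOH1, SPDEF, TRPM5 and MUC2 averaged under 0.1 TPM. That list summed to 43.6 to 50.4 TPM in 6 h controls and 56.8 to 60.3 TPM in treated cells, and to 28.4 to 33.6 and 35.6 to 40.4 TPM at 24 h. Most of that sum was LYZ, with 42.9 to 49.8 TPM in 6 h controls and 47.9 to 50.3 TPM in treated cells, and CHGB made up most of the rest in treated cells. The endothelial list, mostly PECAM1, summed to 11.1 to 16.1 and 21.1 to 25.6 TPM at 6 h and to 9.89 to 14.6 and 11.9 to 18.2 TPM at 24 h. The fibroblast list summed to 11.0 to 12.2 and 7.97 to 8.84 TPM, and to 10.6 to 11.3 and 7.57 to 8.79 TPM.

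The contrast between times within untreated cells asked whether the genes also moved with time in culture, and it was tested with limma. It was not used by the rule but shares the control libraries with it. At an adjusted p under 0.05, 29 of the 144 genes (20.1%) were higher at 24 h and 26 (18.1%) lower, and 89 were not called. Over all tested genes 22.2% were called higher and 34.2% lower, and after median-of-ratios rescaling 30.3% and 26.2%, with 25% and 16% of the 144. After quantile normalization 27.4% and 28.7% of all tested genes were called, with 20.8% and 18.8% of the 144. The members' shares of higher and of lower calls were thus both below those of all tested genes in each scaling. The shares of higher calls were close only with TPM as deposited. Changes on this scale were small, with a median of -0.01. The scale flattens changes near 0, and 44 members averaged under 1 TPM in 6 h controls and 46 in 24 h controls. With a pseudocount of 0.1, 31 members were called higher and 32 lower, and shares over all tested genes were not counted. On the log2(TPM + 1) scale RHOQ, a small GTPase, was the only gene called with a change of at least 1. RHOQ had 0.83, 0.91 and 1.30 TPM in 6 h controls and 4.10, 5.57 and 3.77 TPM in 24 h controls, higher by 1.44 (SE 0.21, limma adjusted p = 0.000139). In treated cells it had 8.78, 13.3 and 8.43 TPM at 6 h and 9.55, 16.4 and 13.4 TPM at 24 h. Next in size on that scale were TXNRD1, which fell by 0.99 (SE 0.09, limma adjusted p = 3.56e-06), and ENSSSCG00000041461, which fell by 0.98 (SE 0.11, limma adjusted p = 1.88e-05). HES2 fell by 0.89 (SE 0.13, limma adjusted p = 0.00015). GSTO1 fell by 0.88 (limma adjusted p = 4.34e-06). Genes that rose included GABARAPL1 by 0.88 (limma adjusted p = 1e-04), DUSP1 by 0.80 (limma adjusted p = 3.6e-07), HSPB8 by 0.67 (limma adjusted p = 1.44e-05) and SQSTM1 by 0.60 (limma adjusted p = 0.0017).

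The same contrast within treated cells shares the treated libraries with the rule. Here 65 of the 144 genes (45.1%) were lower at 24 h and 29 (20.1%) higher by limma, and 50 were not called. Over all tested genes the balance was the other way, with 28.2% lower and 46.8% higher. Rescaling moved both in the same sense: median-of-ratios gave 53.5% lower and 17.4% higher among the members and 35.5% and 40.1% among all, and quantile normalization 56.9% and 13.9% against 37.9% and 37.1%. A change of at least 1 was reached by 31 of the lower genes and 9 of the higher ones. The shares of all tested genes at that size were not counted, so nothing is read from these counts. Of the 65 lower genes, 44 were not called lower in untreated cells and the rest were. Among all tested genes 34.2% were called lower in untreated cells, so this split is near the background. The share of all tested genes lower in treated cells only was not counted. HMOX1 fell by 4.45 in treated cells (SE 0.10, limma adjusted p = 1.27e-10), ZFAND2A by 3.93 (SE 0.16, limma adjusted p = 4.36e-09) and HSP70.2 by 3.18 (SE 0.09, limma adjusted p = 3.38e-10). HSPA6 fell by 2.61 (limma adjusted p = 2.12e-08), NQO1 by 2.58 (limma adjusted p = 1.95e-09) and GCLC by 2.62 (limma adjusted p = 1.77e-09). UCHL1 rose by 1.46 (SE 0.13, limma adjusted p = 1.7e-06) and GPX3 by 1.66 (SE 0.18, limma adjusted p = 7.62e-06). BLVRB and RASD1 were not called, with changes of -0.10 (SE 0.09, limma adjusted p = 0.338) and -0.09 (SE 0.13, limma adjusted p = 0.543). For FTL the change was 0.04 (SE 0.06, limma adjusted p = 0.547); after quantile normalization, and without the first 24 h treated library, it was called higher, by 0.18 and 0.12.

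**Figure D4:**
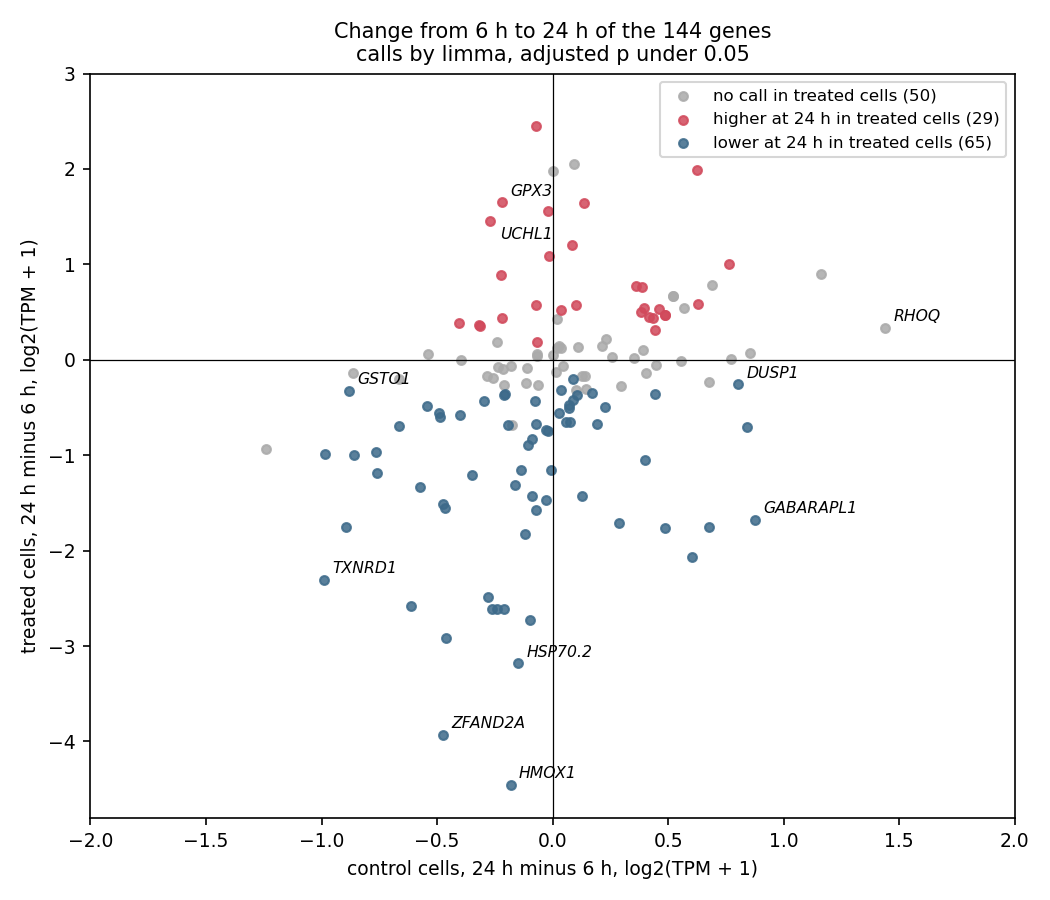
Each point is 1 of the 144 genes, with its change from 6 h to 24 h in control cells on the x axis and in treated cells on the y axis, both in log2(TPM + 1). Colours give the limma calls in treated cells, 65 lower, 29 higher and 50 without a call; the points spread over a wider range on the y axis, from -4.45 to 2.45, than on the x axis, from -1.24 to 1.44.

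The remaining lists held few or none of the 144 genes. Over all tested genes, limma called 26.6% higher and 48.7% lower at 6 h, and 32.2% and 18.1% at 24 h. The counts that follow are to be read beside those shares. Of 29 tested genes of the integrated stress and unfolded protein responses, 21 were higher and 5 lower at 6 h, and 6 higher and 17 lower at 24 h, and 0 were members. Of 25 hypoxia and glycolysis genes, 11 were higher and 11 lower at 6 h, and 10 higher and 9 lower at 24 h. Of 19 genes of the p53 response, 8 were higher and 6 lower at 6 h, and 8 higher and 4 lower at 24 h, with GADD45G as the only member. Of 7 aryl hydrocarbon receptor and xenobiotic genes, 5 were higher and 1 lower at each time. The lists with 0 members were those of junctions (26 tested; 5 higher and 16 lower at 6 h, 8 and 6 at 24 h), sterol synthesis (18 tested; 1 and 14, then 2 and 7), growth factors (20 tested; 3 and 12, then 9 and 4), metal response (3 tested; 2 and 1, then 1 and 0) and host defence (4 tested; 0 and 1, then 0 and 3). The balance of the junction list at 24 h turned with median-of-ratios rescaling, to 6 higher and 8 lower, and that of host defence at 6 h became 1 and 1.

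A few members rest on unstable values. In 7 of the 144 genes 1 library was listed at 0 and another had 20 TPM or more, a class of 112 genes in the whole table, and their groups overlapped. SNORA27, a small nucleolar RNA, was listed at 0 in all 6 controls, had 0, 65.9 and 0 TPM in the 6 h treated libraries and 0, 63.7 and 62.0 TPM in the 24 h ones, so its 6 h difference rests on 1 library and is 0 without it. A listed 0 can also be a failed estimate. RAMP3 and GHR overlapped as well, as did ENSSSCG00000031740 and ENSSSCG00000034995, which had the same values in all 12 libraries and cannot be counted as separate measurements. The same holds for ENSSSCG00000032769 and ENSSSCG00000039615. Leaving out the 7 genes and 1 of each identical pair, an alternative chosen after seeing the data, left 135 genes, of which 93 were called between times in treated cells, 65 of them lower. In the reference, DHDH and FTL are neighbours on chromosome 6 with 1 gene between them, the only such pair among the matched members, and DHDH had differences of 1.58 and 1.83, close to those of FTL.

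The threshold cuts through a continuous range. By the smaller of the 2 differences, IL11 (1.0007) and SLC17A7 (1.0006), a vesicular glutamate transporter, were the last inside, and ENSSSCG00000036451 (0.989) and ENSSSCG00000023467 (0.985) the first outside. Between 1 and 1.1 lay 35 genes, and between 0.9 and 1 lay 37. Of the genes described here, those without a place in the naming rule, such as BLVRB, GCLC, GCLM, PRDX1, CD14 and the members without a symbol, and the genes outside the 144 other than the 2 at the threshold, were chosen after their values were seen.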

How the data were processed

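RNA from IPEC-J2 cells was sequenced in 12 libraries, 3 for each combination of control or deoxyshikonin and 6 h or 24 h; groups and replicate numbers come from the sample titles. TRIzol extraction of total RNA, DNase I treatment and Illumina library preparation are given per the labels' protocols. The authors deposited 1 table of TPM per gene and library. Per the submitters' processing notes, fastp, HISAT and RSEM were used; their versions, the genome build and the annotation are not given in the sources used here. TPM carries no depth, so no counting error could be computed, and a rise in some genes lowers all others.

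Symbols came from a reference table of gene names, which matched 15029 of 32518 identifiers. The 11897 genes, assembled loci included, whose TPM averaged 1 or more were fitted as log2(TPM + 1) with limma 3.58.1 in R 4.3.3 (all 4 groups in one fit, 8 residual degrees of freedom, eBayes with a trend), two-sided, with Benjamini-Hochberg adjustment over all of them and a threshold of 0.05. A change on this scale understates that of low genes. Ratios of means are of TPM. The procedure was tested on simulated data. Members, the 15 pathway and 5 marker lists, and the naming rule were chosen with earlier results of these data known. The rule took the 10 members with the highest smaller difference, the 5 highest in treated cells, the 3 with the largest gain and the 3 with the largest loss between times, the 3 most changed in untreated cells, up to 4 per list and the 2 on each side of the threshold. Alternatives were a pseudocount of 0.1, no filter, a minimum mean TPM of 5, median-of-ratios rescaling, quantile normalization, a replicate block, only the groups compared, no trend, a minimum absolute change of 1 and each library left out.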

Additional observations from a re-analysis of the deposited data

Results flagged for a closer look

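Outside the Ensembl identifiers, 12 of 531 assembled loci with a mean TPM of at least 1 had differences of at least 1 at both times, in data that the rule for the 144 genes left out. MSTRG.3939 and MSTRG.5797 had the largest 24 h differences, 5.46 and 4.90, well above their 6 h differences. MSTRG.15176 was largest at 6 h, with 4.22, and had 1.87 at 24 h. MSTRG.710, MSTRG.4594 and MSTRG.7309 varied widely among replicates; MSTRG.7309 ranged from 5.85 to 35.6 TPM over the 6 h controls and from 11.6 to 65.8 TPM over the 6 h treated libraries. What these loci encode was not tested.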

How the results depend on the processing

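A pseudocount of 0.1 in place of 1 gave 229 genes over both thresholds, with all 144 among them, since it widens the differences of low genes. Without a filter there were 148 and with a mean TPM of at least 5 there were 100. Median-of-ratios rescaling gave 136 genes (127 shared) and quantile normalization 137 (128 shared), and over the 144 genes the median 24 h minus 6 h difference moved from -0.19 to -0.38 and -0.37. Requiring an absolute change of 1 as well left 1 gene called between times in untreated cells and 40 in treated cells, a stricter criterion on the same fit. Shares of all tested genes at that criterion were not counted. Leaving out each library in turn gave 133 to 157 genes over the thresholds (both extremes from 24 h treated libraries), 45 to 65 called in untreated cells, 88 to 96 in treated cells, 87 to 96 with the larger difference at 6 h, and a median of -0.287 to -0.170. Among single genes, the 6 h difference of ENSSSCG00000036451 ranged from -0.048 (without the second 6 h control) to 1.67, and that of SNORA27 from 0 (without the second 6 h treated library) to 3.03. CLU was called lower in treated cells at 24 h (-0.37), but not without the first 24 h or the second 6 h treated library (-0.25 and -0.30). Leaving out 1 library also ended 10 calls in untreated cells, those of ZFAND2A, CRYAB and FOSB, out of 31 named genes. Whether the replicate numbers pair the libraries was left undecided. Of 12 same-numbered pairs, 1 correlated over 0.1 (range -0.115 to 0.109), yet 8 of 12 correlated best with their own number. With the replicate block 52 genes were called in untreated and 94 in treated cells, against 55 and 94, and neither count moved by as much as 1.5 times.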
